A study of Mus musculus with 705 samples.

Results

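Ribosomal protein pseudogenes were taken as the genes whose symbol starts with Rpl or Rps and ends in -ps, with or without a number. Of the 21613 genes in the count table, 75 met this rule. The annotation called 69 of them processed pseudogenes and 4 transcribed processed pseudogenes, and it called Rpl10-ps3 and Rps12-ps3 protein coding. They lay on 19 chromosomes, 6 of them on X, and went back to 36 parent genes, each of which was also in the table. The rule used the symbol and no measured value, but it was set with earlier results of these data known. The table itself held only genes with a read in at least 50.1% of libraries.

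RNA was sequenced from the gonadal fat pad of the F1 offspring of Collaborative Cross (CC) strains, called CC recombinant inbred intercross (CC-RIX) mice. There were 20 crosses from 19 parent strains, and each mouse carried 1 genome from each parent strain, assembled from 8 founder strains. Names of crosses are cut here to the strain numbers of both parents, so that the cross labelled CC002/UncJ x CC043/GeniUncJ is written CC002xCC043. From 6 weeks of age the food of females and males held 10% fat (control) or 44% fat, the latter being the high-fat, high-sugar (HFHS) diet. Part of the mice drank metformin, a drug against type 2 diabetes, at 5 mg/mL from 7 to 12 months of age. The paper had a younger and an older cohort and used age as a covariate. The labels gave no age for a single mouse, so no test here is adjusted for age. The untreated libraries may hold mice of both cohorts. Metformin went only to the older cohort, so age and metformin cannot be told apart. The 470 untreated libraries came from 236 females and 234 males, with 236 on the control and 234 on the HFHS diet. The 233 metformin libraries came from 115 females and 118 males, with 116 on the control and 117 on the HFHS diet. A cross held 22 to 38 libraries.

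A processed pseudogene arises when a messenger RNA is copied back into DNA and inserted elsewhere in the genome, so it carries the exons of its parent gene joined together and usually lacks the parent's promoter. Ribosomal protein genes are transcribed strongly in every cell and have left more such copies in mammalian genomes than most gene families. Because insertions arose at different times, a copy can be present in one mouse strain and missing in another, and a young copy can match the parent messenger RNA letter by letter. A read from such a stretch cannot be assigned to one of the genes by its letters.

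Levels are given as CPM, the estimated count of a gene as a share of the library total on a common scale, with library scaling by TMM. Library totals ran from 33534601 to 87783043 with a median of 49919023. In 15 libraries expression did not match the label, 11 by sex and 4 by cross (CC024xCC002 and CC002xCC075, replicates 34 and 35 of each). Further, 30 libraries that matched their labels stood apart from their own cross in at least 1 of the 13 members whose levels stepped between crosses, as described with these. Fat cell markers were present as labelled: all 8 had a median of at least 1 CPM, and their sum ran from 9584 to 25619 CPM. The skeletal muscle markers summed to between 0.937 and 3839 CPM, and 1 of 5 had a median of at least 1 CPM. In bulk RNA, fewer cells of a type and less RNA per cell cannot be told apart.

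The next sequences show how closely members can match the parent gene. Each pair gives 90 bases of the copy and the matching coding bases of the parent, 5′ to 3′ on the strand of the gene, from the genome build GRCm38 with the GENCODE M21 annotation. Capitals mark the bases at which the copy and the parent differ in the reference genome. The founder strains may carry other letters, which were not read here.
Rpl19-ps11: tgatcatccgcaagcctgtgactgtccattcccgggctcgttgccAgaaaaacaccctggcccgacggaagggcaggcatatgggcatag
Rpl19: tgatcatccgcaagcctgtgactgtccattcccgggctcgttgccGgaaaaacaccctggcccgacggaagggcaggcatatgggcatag
Rps25-ps1: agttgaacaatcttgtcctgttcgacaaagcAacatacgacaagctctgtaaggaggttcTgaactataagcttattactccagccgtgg
Rps25: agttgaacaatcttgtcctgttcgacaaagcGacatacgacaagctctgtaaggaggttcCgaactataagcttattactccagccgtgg
Rps2-ps13: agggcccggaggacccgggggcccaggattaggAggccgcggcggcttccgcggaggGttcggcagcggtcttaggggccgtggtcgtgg
Rps2: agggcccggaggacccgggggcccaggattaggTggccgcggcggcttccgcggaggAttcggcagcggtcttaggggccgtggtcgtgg
Rps13-ps1: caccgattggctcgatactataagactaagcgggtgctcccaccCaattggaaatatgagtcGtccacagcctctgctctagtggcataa
Rps13: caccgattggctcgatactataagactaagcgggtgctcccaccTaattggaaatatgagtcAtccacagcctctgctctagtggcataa
Rps16-ps2: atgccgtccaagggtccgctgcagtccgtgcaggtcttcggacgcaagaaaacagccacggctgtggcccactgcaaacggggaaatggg

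The stretch of Rpl19-ps11 lies at chr8:19493081-19493170 on the plus strand and holds the only difference from Rpl19 (chr11:98028379-98028468, plus) in the 591 aligned bases. Rps25-ps1 (chr6:145266527-145266616, plus) differed from Rps25 (chr9:44408714-44408803, plus) at 2 bases of this stretch and 4 of all 378. Rps2-ps13 (chrX:52898614-52898703, plus) differed from Rps2 (chr17:24720302-24720391, plus) at 2 bases of the stretch and 7 of 882. Rps13-ps1 (chr8:87048086-87048175, plus) differed at 2 of 522 aligned bases, both shown, from Rps13, whose matching bases lie on the minus strand of chromosome 7 in 2 exons. Rps16-ps2 (chr5:129128428-129128517, minus) is shown alone because its 90 bases, which hold the start codon, are the same letters as in Rps16. Over 441 bases the copy had no difference from the parent, and it lies in an intron of Adgrd1 on the opposite strand. These pairs were chosen, with their values known, as copies with large differences between crosses that have from 0 to 7 mismatches to the parent.

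Most members were near zero in the fat pad. In 50 of 75 the median stayed under 1 CPM in every cross, 25 reached 1 CPM in at least 1 cross and 20 reached 10 CPM. The highest value in any library was 380 CPM, for Rps2-ps13 in CC051xCC019. All members had reads somewhere, which was fixed in advance, since every gene in the table had a read in at least 50.1% of libraries. Copies without reads in most libraries were thus not in the table and are missing from all counts here. Of the members, 38 had a cross median above 0 in all 20 crosses and 37 in 1 to 19 of them. A cross was called on for a member when at least 90% of its libraries had 1 CPM or more, and off when at least 90% had under 0.1 CPM. By that rule 22 members were on in at least 1 cross, 6 were on in all 20, and Rpl31-ps14 was off in all 20.

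Of the 6 members that were on everywhere, 4 varied little. Rpl10-ps3, a copy of the gene for the late-joining large-subunit protein RPL10, had cross medians from 197 to 235 CPM, and Rpl10 itself had cross means from 104 to 133 CPM. Cross medians of Rps12-ps3 ran from 78.0 to 120 CPM, those of Rpl31-ps8 from 59.5 to 71.5 CPM and those of Rpl36a-ps2 from 16.4 to 20.6 CPM. In these 4 the highest cross was less than 2 times the lowest. Rpl10a-ps1, a copy of the gene for the stalk protein RPL10A, was lowest in CC024xCC002 at 39.98 CPM, next in CC030xCC002 at 59.8 CPM, and 65.0 to 92.1 CPM in the other crosses. Rpl27-ps3 fell into separate ranges, 52.3 to 57.1 CPM in the 5 crosses with a CC002 parent and 88.5 to 96.0 CPM in the other 15.

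**Figure D1:**
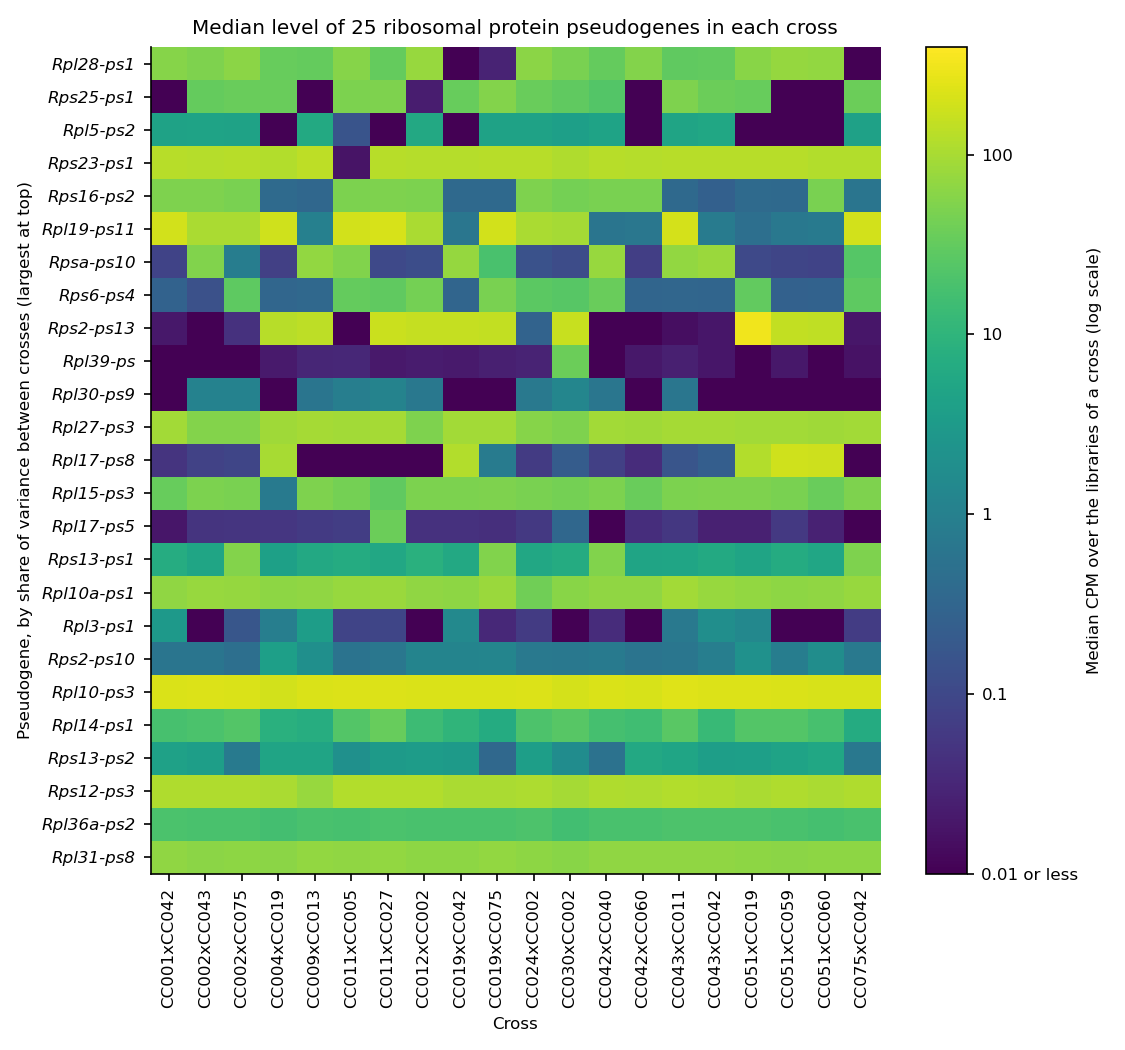
Median level of each member that reached 1 CPM in some cross (rows) in each of the 20 crosses (columns), as colour on a log10 scale of CPM. Rps23-ps1 is dark in CC011xCC005 alone, Rpl39-ps and Rpl17-ps5 are bright in 1 cross each, and Rpl10-ps3 and Rpl31-ps8 hold nearly one colour across the row.

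Differences between crosses were tested in the untreated mice with the quasi-likelihood F-test of edgeR and Benjamini-Hochberg adjustment over 20131 genes. Of the 43 members that passed the filter on low counts, 35 differed between crosses, beside 93.5% of all genes tested, so the count says nothing particular about the members. The 32 members that did not pass were not tested. All 85 ribosomal protein genes tested differed, as did 62 of 69 other named pseudogenes. The size of the differences was read as the share of variance of log2 CPM that lay between crosses. Its median was 16.6% over the 43 members, 30.1% over the ribosomal protein genes, 15.8% over the other pseudogenes and 15.4% over all genes tested. At the upper end, 9 of 43 (20.9%) had more than 90% of variance between crosses, against 4 of 69 other pseudogenes (5.80%), 10 of 85 ribosomal protein genes and 0.512% of all genes.

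Among the 43 members tested, the 10 with the largest share were, in order, Rpl28-ps1 (99.0%), Rps25-ps1 (98.8%), Rpl5-ps2 (97.6%), Rps23-ps1 (96.2%), Rps16-ps2 (95.8%), Rpl19-ps11 (94.0%), Rpsa-ps10 (93.5%), Rps6-ps4 (91.8%), Rps2-ps13 (91.0%) and Rpl30-ps9 (85.7%). Rpl39-ps, which was not tested, had a share of 86.4%. Rpl28-ps1 ranked 3 and Rps25-ps1 ranked 4 of 20131 genes. Among members with a mean of at least 1 CPM in some cross, the smallest shares belonged to Rps27a-ps2 (3.54%), Rpl31-ps8 (5.25%), Rpl36a-ps2 (6.02%), Rps12-ps3 (15.3%) and Rps13-ps2 (15.9%). Of these 5, Rps27a-ps2 had no cross median above 0.855 CPM and Rps13-ps2 none above 6.03 CPM, while Rpl31-ps8, Rpl36a-ps2 and Rps12-ps3 were on in every cross.

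On in some crosses and off in others were 6 members. Rpl28-ps1 was on in 17 crosses and off in CC019xCC042, CC075xCC042 and CC019xCC075, the only crosses whose parents were both among CC019, CC042 and CC075. Its medians in the 17 crosses ran from 30.4 CPM in CC043xCC011 to 77.5 CPM in CC012xCC002. The lowest library of those 17 crosses held 20.7 CPM and the highest library of the other 3 held 0.140 CPM, so no library was between. Rps25-ps1, a copy of the gene for the small-subunit protein RPS25, was on in 14 crosses with medians from 23.7 CPM in CC042xCC040 to 54.8 CPM in CC019xCC075. It was off in 5 crosses and had a median of 0.0236 CPM in CC012xCC002. The lowest library of the 14 crosses held 16.1 CPM and the highest of the other 6 held 0.123 CPM, again with none between.

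Rpl5-ps2 was on in 12 crosses at a lower level, with medians from 4.02 CPM in CC030xCC002 to 6.33 CPM in CC009xCC013. RPL5, the protein of its parent gene, carries the 5S ribosomal RNA and binds the p53 regulator MDM2. Its lowest library in those crosses held 2.63 CPM. Rpl5-ps2 was off in 7 crosses, each with a median of 0, and had a median of 0.158 CPM in CC011xCC005, where no library passed 0.270 CPM. The 12 crosses and the other 8 did not overlap in any library.

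Rpl39-ps and Rpl17-ps5 were on in 1 cross each. Rpl39-ps is a copy of the gene for RPL39, a small protein of the tunnel through which the new peptide leaves the ribosome. In CC030xCC002 its 37 libraries held 29.1 to 46.8 CPM with a median of 37.3 CPM, and no library of the other 19 crosses passed 0.178 CPM. Rpl17-ps5 held 16.8 to 49.8 CPM with a median of 37.3 CPM in CC011xCC027, and no other library passed 0.878 CPM. Rpl39-ps did not pass the filter on low counts and was not tested. Both were separated from every library of the other crosses.

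Rps2-ps13, on X, was on in 9 crosses and off in 2 by the 90% rule, and its cross medians fell far apart. In 9 crosses the median ran from 128 CPM in CC004xCC019 to 169 CPM in CC011xCC027, in CC051xCC019 it was 315 CPM, and in the other 10 it was at most 0.289 CPM. RPS2, the protein of the parent gene, sits near the entry channel for messenger RNA on the small subunit. CC051xCC019 is the cross of CC051 and CC019, and of the 9 other crosses with a high level, 5 had 1 of these as a parent, while CC012xCC002, CC009xCC013, CC030xCC002 and CC011xCC027 had neither.

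The 90% rule misses members whose low crosses keep a few reads. Where neighbouring cross medians had to be at least 10-fold apart, with values under 0.1 CPM set to 0.1, 13 members stepped between a high and a low level. They were the 6 above and Rpl19-ps11, Rpl17-ps8, Rps16-ps2, Rps23-ps1, Rpsa-ps10, Rps6-ps4 and Rpl15-ps3. This rule was set after the levels had been seen, so the 13 are a description without a test. Rps13-ps1 fell just outside, with a 6.301-fold gap between 8.32 CPM in CC012xCC002 and 52.4 CPM in CC075xCC042. Just inside was Rpsa-ps10, with a 22.04-fold gap between 0.876 CPM in CC002xCC075 and 19.3 CPM in CC019xCC075.

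Rpl19-ps11 took 3 separate levels. It stayed between 0.477 and 1.02 CPM in 8 crosses, lay between 97.5 and 105 CPM in the 5 crosses with a CC002 parent, and reached 185 to 207 CPM in 7. Rpl19, which encodes a large-subunit protein, ran the opposite way. Its cross mean was 190 to 217 CPM in the first 8 crosses, 96.3 to 104 CPM in the CC002 crosses and 7.44 to 8.35 CPM in the last 7. In CC019xCC075, for example, Rpl19 held 7.44 ± 2.3 CPM (SD, n = 24), while in CC051xCC019 it held 217 ± 16 CPM (SD, n = 24). The ranges of the 3 sets of crosses did not overlap in either gene. The sum of copy and parent had cross medians from 193 to 215 CPM, a 1.115-fold range, where Rpl19 alone had a 29.8-fold range.

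Rpl17-ps8, on X in an intron of Heph on the same strand, was high in 5 crosses. Its median was 99.4 CPM in CC004xCC019, 115 CPM in CC019xCC042 and 116 CPM in CC051xCC019, and it was 176 CPM in CC051xCC060 and 185 CPM in CC051xCC059. In the other 15 crosses it was at most 0.804 CPM. Rpl17 had medians from 3.15 to 66.0 CPM in the 5 crosses and from 159 to 196 CPM in the 15, without overlap. The sum of the 2 genes ran from 158 to 197 CPM, a 1.249-fold range beside a 62.3-fold range of Rpl17.

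Rps2-ps13 and Rps2 showed the same exchange. Rps2 had medians of 17.6 to 259 CPM in the 10 crosses with a high copy and 420 to 484 CPM in the other 10. CC051xCC019, with the highest level of the copy, had the lowest level of Rps2. The sum ran from 331 to 484 CPM, a 1.46-fold range where Rps2 alone had a 27.6-fold range.

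In 4 further members the copy and the parent divided a total that moved little. Rps16-ps2 held 42.8 to 51.1 CPM in 11 crosses, where Rps16 held 38.2 to 50.9 CPM, and at most 0.613 CPM in 9 crosses, where Rps16 held 85.2 to 98.3 CPM. Rps23-ps1 held 110 to 136 CPM in 19 crosses and 0.0176 CPM in CC011xCC005. Rps23, whose protein takes part in decoding, had medians of 73.4 to 90.4 CPM in the 19 crosses and 204 CPM in CC011xCC005. For Rpl28-ps1 the parent range was 93.0 to 124 CPM where the copy was on and 143 to 152 CPM where it was off. Rpl39 fell to 17.7 CPM in CC030xCC002, where Rpl39-ps was on, and lay between 61.0 and 70.4 CPM in the other crosses. For these 4 pairs the ranges of the sums lay between 1.16-fold (Rps23-ps1) and 1.28-fold (Rpl39-ps).

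Rps25-ps1, Rpsa-ps10 and Rps6-ps4 did so on a smaller scale. Rps25 had medians of 68.1 to 96.3 CPM in the 14 crosses with the copy and 119 to 129 CPM in the other 6, and the 1.90-fold range of the parent became 1.17-fold for the sum. Rpsa-ps10 held 19.3 to 80.7 CPM in 9 crosses. Rpsa, whose product is also known as a laminin receptor, had medians of 312 to 380 CPM there and 381 to 440 CPM in the other 11 crosses. Rps6-ps4 held 25.1 to 48.3 CPM in 10 crosses and at most 0.353 CPM in 10. Rps6, which encodes the ribosomal substrate of S6 kinase, overlapped narrowly, with medians of 205 to 228 CPM in the former and 226 to 270 CPM in the latter.

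A constant sum did not hold for Rpl15-ps3, Rpl5-ps2 and Rpl17-ps5. Rpl15-ps3 held 29.9 to 51.7 CPM in 19 crosses and 0.783 CPM in CC004xCC019. Rpl15 was at 132 CPM in CC004xCC019, inside its range of 127 to 150 CPM in the others, and the sum ranged more (1.48-fold) than the parent (1.18-fold). Rpl5 had medians of 10.5 to 18.6 CPM where Rpl5-ps2 was high and 10.4 to 12.2 CPM where it was low, and the sum had a 2.45-fold range. Rpl17-ps5 added 37.3 CPM to a parent that lay at 159 CPM in that cross. Its sum with Rpl17 kept a 61.6-fold range, since Rpl17-ps8 is not in it.

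Over the 13 members the range of the parent had a median of 2.57-fold and that of the sum 1.22-fold. In 11 of 13 the sum ranged less than the parent, and in 9 of 13 the parent's cross medians did not overlap between the crosses with a high and a low copy. The share of all genes with cross medians apart under the same splits was not taken, so the 9 of 13 has no background here. For Rpl39-ps and Rps23-ps1 the split sets 1 cross against 19. The 93.5% of all genes that differed between crosses, given above, is a different measure. The count estimate divides reads that fit several genes, so the levels of a copy and its parent are not measured independently, and the part of this in the exchange was not tested.

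**Figure D2:**
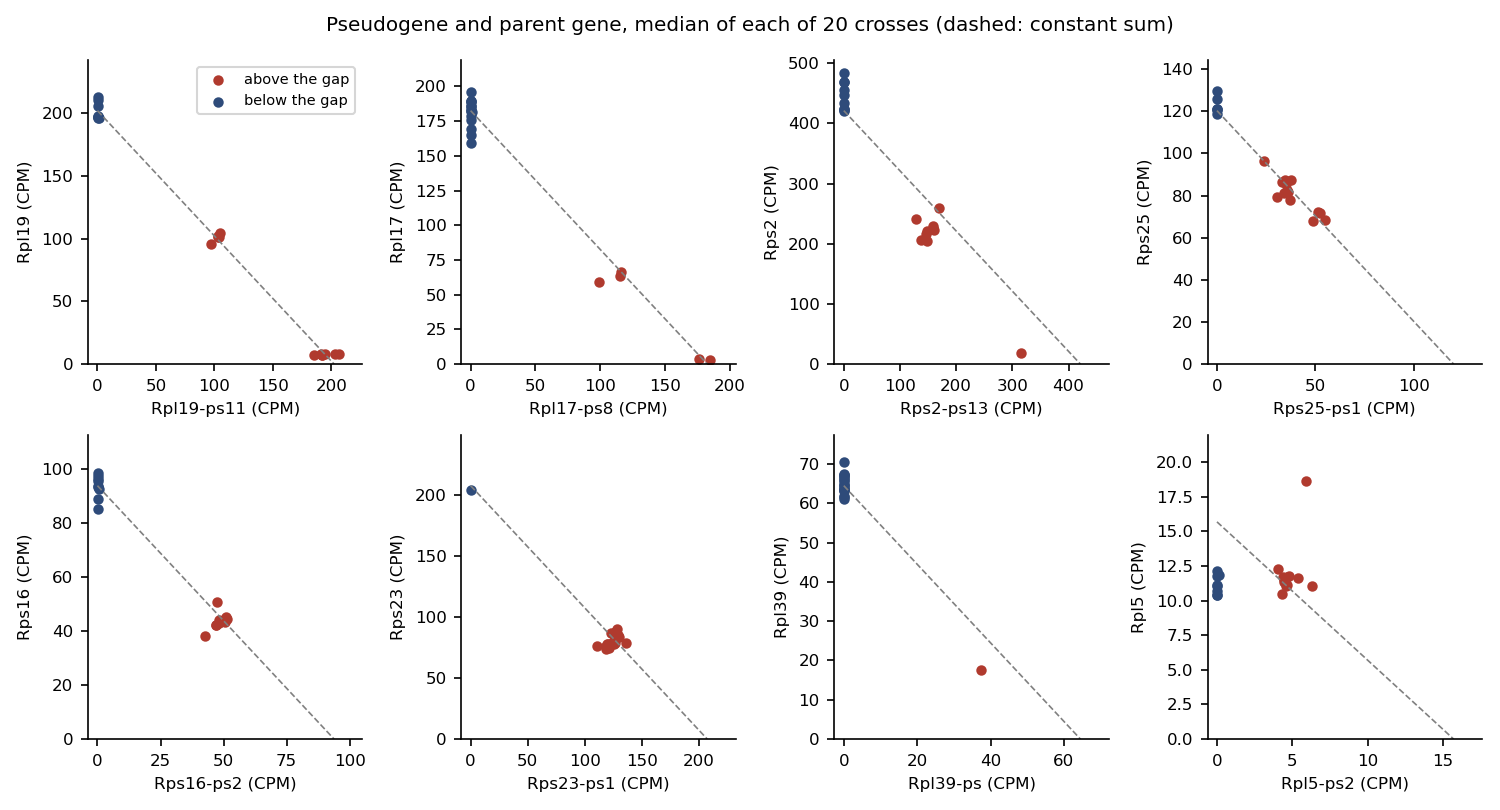
Level of each of several members (horizontal) against that of the parent gene (vertical) over the 20 crosses, in CPM, 1 point a cross, red above and blue below the gap between crosses, with a dashed line of constant sum. In Rpl19-ps11, Rpl17-ps8 and Rps16-ps2 the points lie near that line, in Rps2-ps13 most red points lie below it, and in Rpl5-ps2 the points follow no falling line.

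Pearson's r between copy and parent over the 20 cross means of log2 CPM had a median of 0.02 over all 75 pairs and of -0.83 over the 13. It was under -0.9 in 8 pairs and over 0.9 in none. The lowest belonged to Rps16-ps2 (-0.99), Rpl27-ps3 (-0.99), Rpl39-ps (-0.98), Rps13-ps1 (-0.96) and Rps23-ps1 (-0.95). Among members that never reached 1 CPM it ranged from -0.74 to 0.69 with a median of 0.09. These values have no p, because the crosses share parents and the genes of a pair share reads.

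Rpl27-ps3 and Rps13-ps1 showed the exchange without an off state. Rpl27 held 36.8 to 39.0 CPM as a cross mean in the CC002 crosses, where Rpl27-ps3 was at its lower level, and 8.27 to 10.2 CPM in the others. Rps13-ps1 had medians of 52.4 to 56.7 CPM in CC075xCC042, CC019xCC075, CC042xCC040 and CC002xCC075, and 4.11 to 8.32 CPM in the other 16. Rps13 had cross means of 31.3 to 35.1 CPM in those 4 and 73.4 to 86.3 CPM in the 16, without overlap. Over the 522 bases that aligned to Rps13, of the 538 of the copy, the 2 capital letters printed above were the only differences. The 4 libraries whose expression matched another cross followed that other cross here: CC024xCC002 replicates 34 and 35 held 67.3 and 53.2 CPM of Rps13-ps1, and CC002xCC075 replicates 34 and 35 held 4.03 and 11.6 CPM.

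A parent that differed between crosses did not always have such a copy among the members. Copies with reads in too few libraries were not in the table, and genes of other names were not looked at. Rpl9-ps4 and Rpl9-ps6, which share stretches with Rpl9-ps7, were not among the members. Rpl9 had cross medians from 11.1 to 215 CPM, while the only member named for it, Rpl9-ps7, never passed a median of 0.106 CPM and the sum kept a 19.3-fold range. Rpl23a varied 3.34-fold and so did its sum with Rpl23a-ps3 and Rpl23a-ps2. Of 36 parents, 11 varied at least 2-fold between crosses, and 6 of those 11 had a copy among the 13.

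The steps held in nearly every group of sex, diet and treatment, with the libraries against their labels left out. The gap was taken from these same libraries, in members picked for a wide gap. The groups are thus no independent check and only describe how even a cross was. Over the 159 combinations of cross, sex, diet and treatment with libraries, the median of each member lay on the side of its cross in all 159 for 12 of the 13. For Rpsa-ps10 it did so in 158, the exception being CC002xCC043 females on the control diet with metformin.

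Within a few crosses single libraries lay beyond the middle of the gap, on the side of the other crosses. This was so in 31 values of 30 libraries, none of which was against its label. Most took the level of the other crosses. Between the levels stayed Rpl15-ps3 in CC004xCC019 replicate 4 (5.39 CPM), Rps2-ps13 in CC024xCC002 replicate 32 (9.19 CPM) and Rpsa-ps10 in CC075xCC042 replicate 3 (3.36 CPM). The counts of libraries that follow leave out those against their labels. In CC051xCC060, 4 of 35 libraries, all female, held 0 to 0.0444 CPM of Rpl17-ps8 and 178 to 211 CPM of Rpl17, while the other 31 held 150 to 210 CPM of the copy and 2.02 to 6.99 CPM of the parent. In CC011xCC027, 9 of 35 libraries, 5 of them female, held at most 0.142 CPM of Rps2-ps13 and 414 to 523 CPM of Rps2. The other 26 held 126 to 206 CPM of the copy and 212 to 268 CPM of the parent. The library of CC051xCC060 left out, replicate 11, held 179 CPM of the copy and 4.89 CPM of the parent. In both crosses no library lay between the levels of the copy, and both genes moved together in the same library.

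In CC051xCC019, 4 of 36 libraries, all female, held 0.232 to 0.462 CPM of Rps6-ps4 against 14.8 to 70.1 CPM in the other 32. In CC002xCC043, 5 of 35 libraries, all female, held 0.179 to 0.476 CPM of Rpsa-ps10 against 39.2 to 76.2 CPM in the other 30. For these 2 members the parent overlapped between the libraries. Rpl19-ps11 stood at 193 and 207 CPM in 2 libraries of CC042xCC040, at 206 CPM in 1 of CC042xCC060 and at 187 CPM in 1 of CC019xCC042, crosses whose medians were under 1 CPM. Rpl19 held 4.98 to 10.1 CPM in those 4. Rps16-ps2 held 57.5 CPM in CC043xCC011 replicate 24, whose cross median was 0.370 CPM, with 50.1 CPM of Rps16 against a cross median of 96.4 CPM.

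**Figure D3:**
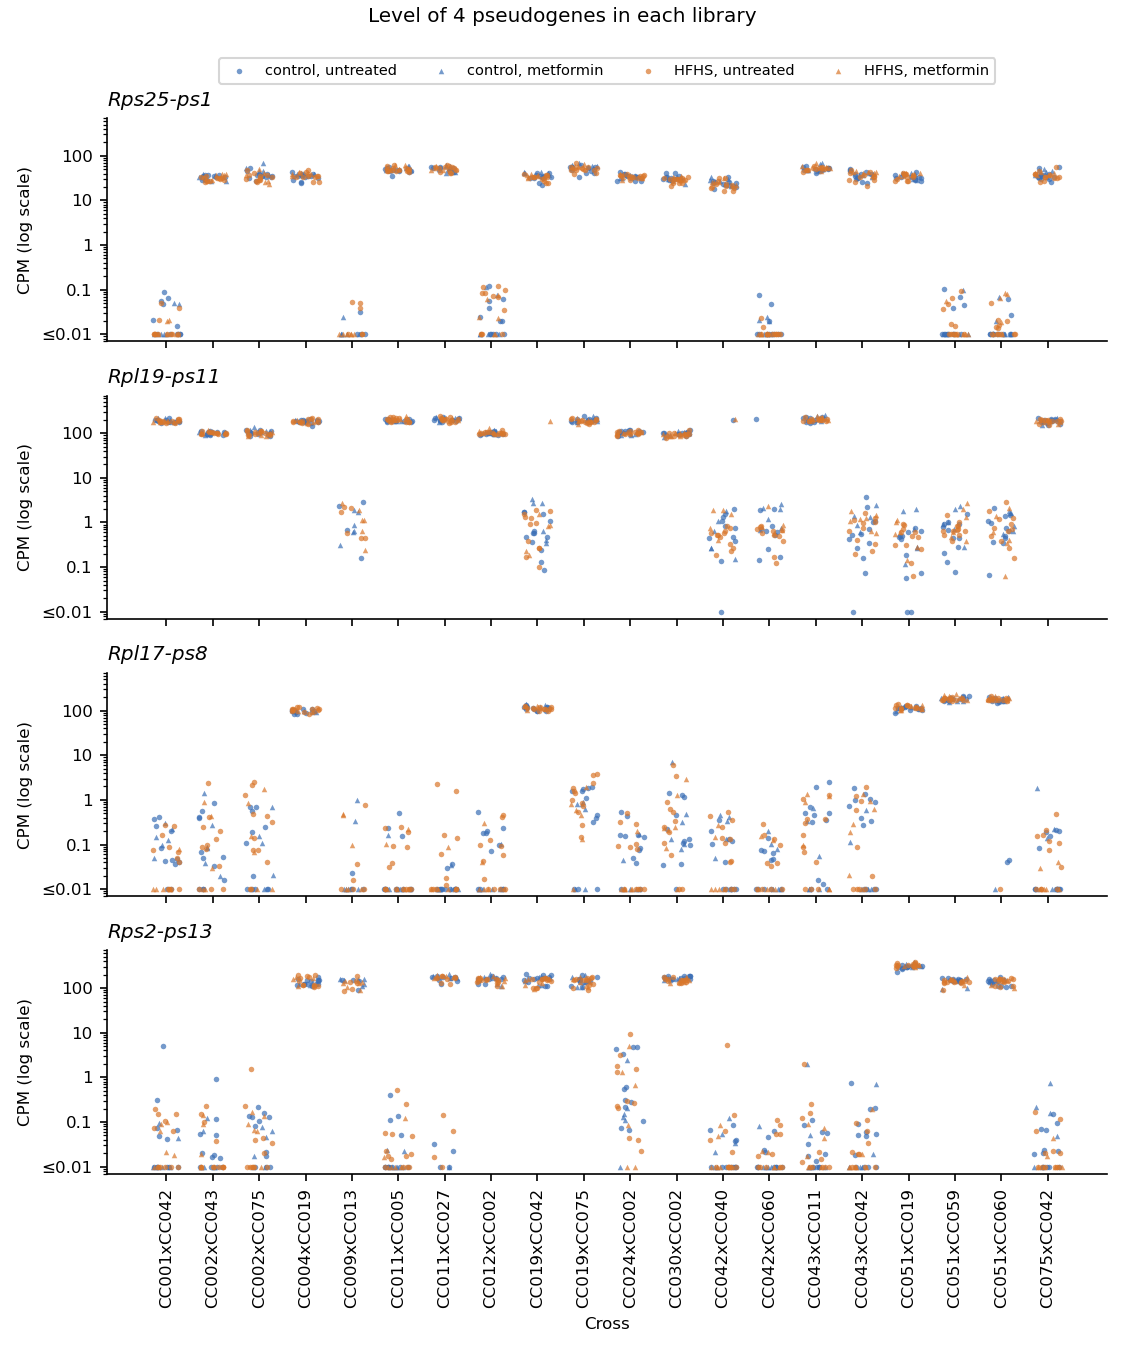
Level of selected members in every library (points, CPM, log scale, with values up to the bottom mark drawn on it) by cross, blue for control and orange for HFHS, circles for untreated and triangles for metformin. Most crosses form 1 cloud at a high or a low level, and the points of Rpl17-ps8 in CC051xCC060 and of Rps2-ps13 in CC011xCC027 split into 2 clouds with none between.

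Matching letters and level went together in the reference genome. For each member, every stretch of 100 bases was looked up in the transcripts of the parent gene. In 11 members every stretch also occurred in the parent. All 11 reached 1 CPM in some cross and 10 reached 10 CPM, and the median of their highest cross medians was 71.5 CPM. In 49 members some stretches did, of which 13 reached 1 CPM and 9 reached 10 CPM. In 15 members none did, and of these only Rpl39-ps reached 1 CPM. Rpl39-ps is 151 bases long with 1 mismatch to Rpl39 (99.3% identity), so that no stretch of 100 bases avoids it. Median identity to the parent was 100% for the first set, 98.9% for the second and 92.8% for the third.

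The stepped members other than Rpl39-ps shared from 27.7% to 100% of their stretches with the parent. Rpl39-ps shared none, since its 1 mismatch falls in every stretch of 100 bases. Rpl28-ps1, Rps16-ps2, Rps23-ps1, Rps6-ps4 and Rpl15-ps3 shared every stretch with the parent. Rpl19-ps11 shared 79.7%, Rpl17-ps8 61.5%, Rpl17-ps5 56.1%, Rpsa-ps10 53.9%, Rps2-ps13 37.5%, Rps25-ps1 34.1% and Rpl5-ps2 27.7%. The steady members Rps12-ps3, Rpl31-ps8 and Rpl36a-ps2 shared every stretch as well. The counts were estimated on transcripts of the 8 founder strains, not on the reference letters alone, and the part of shared sequence in the levels was not tested.

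**Figure D4:**
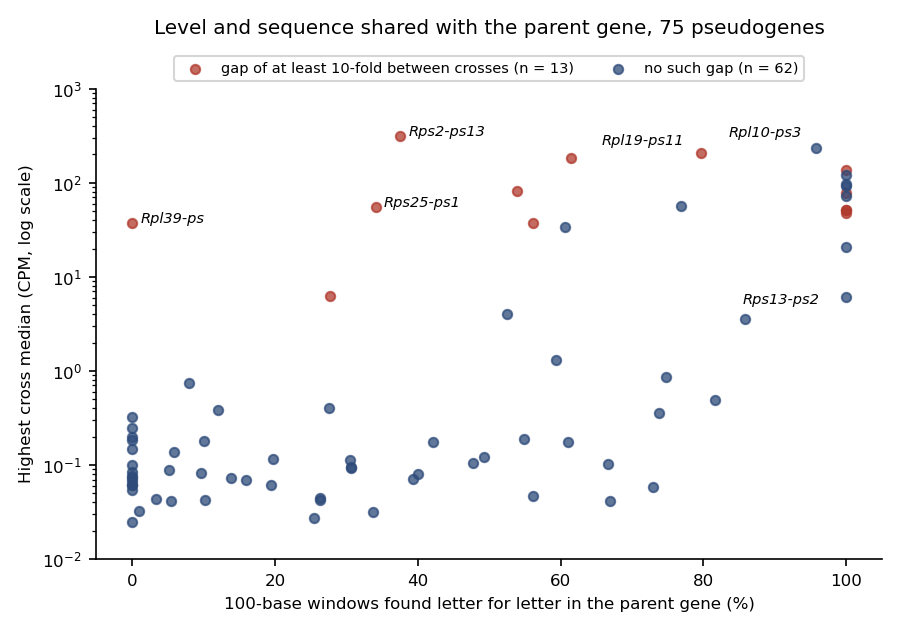
Percent of 100-base stretches of each member that also occur in the parent gene (horizontal) against its highest cross median in CPM (vertical, log scale), red for the 13 stepped members and blue for the other 62. Members with every stretch shared lie at 6.03 to 136 CPM, and red points occur from 27.7% to 100%, with Rpl39-ps alone at 0%.

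Per kilobase of transcript, the estimated count of a copy could stand above that of its parent. As means of untreated mice in the cross where each was highest, Rps2-ps13 held 357 CPM per kilobase, Rpl19-ps11 held 345, Rps23-ps1 held 317, Rpl10-ps3 held 304 and Rpl17-ps8 held 295. In those same crosses the level per kilobase was 204% of that of the parent for Rpl10-ps3, 375% for Rps23-ps1, 1719% for Rps2-ps13, 3104% for Rpl19-ps11 and 7535% for Rpl17-ps8. These crosses were picked for the highest level of the copy, and Rps2 and Rpl17 had their lowest cross means there. The estimate divides reads that fit both genes, and the part of this in the ratios was not tested. Over all libraries of all crosses, the medians of the parents were 367 CPM per kilobase for Rps2, 136 for Rpl19, 88.3 for Rps23, 150 for Rpl10 and 226 for Rpl17. Among members far below the parent, Rpl3-ps1 reached 4.36 CPM per kilobase in its highest cross, 2.11% of the level there of Rpl3, the gene for a protein near the peptidyl transferase centre.

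Diet moved few members. In the untreated mice 7 of 43 differed between HFHS and control (edgeR quasi-likelihood, Benjamini-Hochberg adjusted), 5 higher and 2 lower on HFHS, beside 68.7% of all genes tested. Their median log2 fold change was 0.02 and that of all genes 0.01. Of the ribosomal protein genes 39 of 85 differed, 22 of them higher, and of the other pseudogenes 37 of 69. Markers of other cells differed between the diets as well: the sum of the 8 macrophage markers ran from 334 to 1724 CPM on control (median 756) and from 432 to 5358 CPM on HFHS (median 1029), with a median of at least 1 CPM in all 8. The sum of the 5 skeletal muscle markers had a median of 8.59 CPM on control and 14.6 CPM on HFHS, with 1 of 5 at a median of at least 1 CPM. The part of the cell types in the diet results was not tested.

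Rps13-ps1 was higher on HFHS. Its libraries held 0 CPM at the lowest, 6.11 CPM at the median and 69.5 CPM at the highest on the control diet, and 0.519, 7.83 and 69.1 CPM on HFHS. The diets overlapped almost wholly, and the mean of log2 CPM within a cross was the higher on HFHS in 15 of 20 crosses, libraries against their labels included. In all 4 crosses with a high level the HFHS median was the lower, as in CC042xCC040 (50.2 against 56.1 CPM). In most of the other 16 it was the higher. The log2 fold change was 0.28 ± 0.078 (SE) with an adjusted p of 5.99e-04 in edgeR. Without the libraries against their labels, 13 of which were untreated and so in this fit, it was 0.21, with an adjusted p of 0.00645. Rps13 itself had a log2 fold change of -0.00 (adjusted p = 0.875 in edgeR).

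Rpl10-ps3 and Rpl10a-ps1 rose by small amounts. Rpl10-ps3 had medians of 214 CPM on control and 219 CPM on HFHS (log2 fold change 0.04 ± 0.013, SE, adjusted p = 0.0069 in edgeR). Rpl10a-ps1 had medians of 69.5 and 71.4 CPM (log2 fold change 0.05 ± 0.018, SE, adjusted p = 0.00689 in edgeR). Each had the higher mean of log2 CPM on HFHS in 15 of 20 crosses, and the libraries of the diets overlapped. Rpl30-ps9, which stayed at or under 7.11 CPM in every library, was higher by 0.38 ± 0.14 on the log2 scale (SE, adjusted p = 0.00967 in edgeR) and had the higher mean in 13 crosses. Rpl7a-ps9 also passed, at a level under 1 CPM in every library.

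The decreases of Rpl19-ps11 and Rps16-ps2 depended on the libraries that stood apart. Rpl19-ps11 had medians of 103 CPM on control and 99.0 CPM on HFHS, a log2 fold change of -0.29 ± 0.11 (SE) and an adjusted p of 0.0124 in edgeR. Its mean of log2 CPM was the higher on HFHS in 12 of 20 crosses. Rps16-ps2 changed by -0.19 ± 0.071 on the log2 scale (SE, adjusted p = 0.0102 in edgeR) and had the higher mean of log2 CPM on HFHS in 10 crosses. Of the 5 libraries that stood apart from their cross in these 2 members, 2 came from metformin mice and were not in the diet fit. Without the 3 untreated ones, CC042xCC040 replicate 2, CC042xCC060 replicate 23 and CC043xCC011 replicate 24, Rpl19-ps11 was at -0.01 (adjusted p = 0.869) and Rps16-ps2 at -0.05 (adjusted p = 0.245). In that fit 7 members differed and all 7 were higher on HFHS. For Rps16-ps2 the HFHS median was under the control median in all 9 crosses with a low level, as in CC004xCC019 (0.327 against 0.629 CPM). It was above the control median in most of the 11 crosses with a high level, as in CC001xCC042 (51.0 against 46.2 CPM). The fold change of Rps16-ps2 over all crosses thus averages both directions.

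The diet effect differed between crosses in 5 of 43 members, beside 25.7% of all genes tested and 7 of 85 ribosomal protein genes. These were Rpl19-ps11, Rps16-ps2, Rps13-ps1, Rps2-ps13 and Rps19-ps6. Without the same 3 libraries, 2 members differed, Rps16-ps2 and Rps13-ps1, beside 26.3% of all genes, and Rpl19-ps11 had an adjusted p of 0.873 in edgeR. For Rpl19-ps11 in CC042xCC040, the control libraries ran from 0 to 193 CPM with a median of 0.796 CPM and the HFHS libraries from 0.188 to 0.834 CPM with a median of 0.525 CPM, so 1 control library made the range. Elsewhere the diets overlapped in all 3 levels of the gene, as in CC011xCC027 with 178 to 229 CPM on control and 173 to 247 CPM on HFHS. For Rps13-ps1 the HFHS median was above the control median in CC004xCC019 (7.02 against 2.46 CPM) and below it in CC051xCC059 (5.19 against 9.24 CPM). In the untreated mice, the median of every combination of cross, sex and diet stayed on the side of its cross in all 13 stepped members.

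Sex differences were mostly small and lower in males. Between sexes 12 of 43 members differed, 2 higher and 10 lower in males, beside 72.5% of all genes tested. Of the ribosomal protein genes 37 of 85 differed, 7 higher in males. The median log2 fold change, male minus female, was -0.03 over the members and -0.00 over all genes. The sum of 4 ovary and uterus markers ran from 41.1 to 228 CPM in females (median 100.2) and from 12.6 to 177 CPM in males (median 40.8), with a median of at least 1 CPM in 1 of 4. That of the macrophage markers had a median of 770.0 CPM in females and 1004 CPM in males. The part of other cell types in the sex results was not tested.

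Rps2-ps10 had the largest sex difference. Females held 0.106 CPM at the lowest, 0.669 CPM at the median and 5.26 CPM at the highest, and males 0, 0.743 and 30.4 CPM. The medians were close, but in several crosses males were far above females. Males had medians of 9.48 CPM in CC004xCC019, 8.38 CPM in CC019xCC042, 7.74 CPM in CC009xCC013, 4.45 CPM in CC019xCC075 and 4.03 CPM in CC051xCC060. The females of these crosses, in the same order, had medians of 0.756, 0.984, 1.68, 1.23 and 1.097 CPM. The log2 fold change, male minus female, was 0.86 with an SE of 0.12 (adjusted p = 1.34e-11 in edgeR), and the mean of log2 CPM was higher in males in 12 of 20 crosses. Rps2-ps10 shares 599 stretches of 100 bases with Rps2-ps13, which is on X and was high in these 5 crosses, and the part of that sharing was not tested.

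Among the copies that were lower in males, Rpl36a-ps2 had the lower mean of log2 CPM in males in 19 of 20 crosses. Its medians were 19.5 CPM in females and 18.1 CPM in males, a difference of -0.11 on the log2 scale with an SE of 0.025 (adjusted p = 3.41e-05 in edgeR). Rpl36a, an X-linked gene for a large-subunit protein, had a log2 fold change of -0.08 (adjusted p = 1.90e-06). Rpl27-ps3 likewise had the lower mean in males in 19 crosses, with medians of 89.2 CPM in females and 86.9 CPM in males. Rpl28-ps1 (-0.07), Rpl17-ps8 (-0.40), Rpl30-ps9 (-0.44) and Rps27a-ps2 (-0.31) were lower by log2 fold change as well. In no cross did the libraries of females and males separate fully in any member. For Rpl3-ps1, an X-linked member whose sex difference did not pass the test, females of CC075xCC042 had a median of 4.21 CPM and at most 14.4 CPM, and males a median of 0.0238 CPM and at most 0.098 CPM.

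With metformin 13 of 43 members differed from untreated mice, 12 higher and 1 lower, beside 19.1% of all genes tested in either direction and 7.72% higher. The ribosomal protein genes moved likewise by count, with 29 of 85 different and 26 of these higher. The median log2 fold change was 0.06 over the members, 0.02 over the ribosomal protein genes and -0.00 over all genes. Libraries had sequencing identifiers in 4 separate ranges, A to D below, and their share of treated mice differed: A held 335 untreated and 72 metformin libraries, B 66 and 71, and C 66 and 88. What the ranges stand for is not in the labels. With the range as a covariate 2 members differed, Rpl31-ps8 and Rpsa-ps9, beside 11.1% of all genes. Within A, B and C alone edgeR called 0 members, with 5, 2 and 4 at an unadjusted p under 0.05, beside 2.76%, 0.0993% and 0.715% of all genes called.

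Rpl31-ps8 was the most even increase. Untreated mice held 44.1 CPM at the lowest, 64.7 CPM at the median and 104 CPM at the highest, and metformin mice 48.5, 68.8 and 96.4 CPM. The libraries overlapped widely, yet the mean of log2 CPM was the higher with metformin in 20 of 20 crosses. The log2 fold change was 0.08 with an SE of 0.014 (adjusted p = 7.60e-07 in edgeR). Rpl31 did not follow, with -0.01 (adjusted p = 0.765). By range, the medians of Rpl31-ps8 in untreated and metformin mice were 63.6 and 66.3 CPM in A, 67.5 and 69.4 CPM in B, and 69.5 and 69.9 CPM in C. These medians pool the crosses of each group.

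Larger fold changes belonged to Rps13-ps2 (0.43 ± 0.14, SE), Rps2-ps10 (0.39 ± 0.099), Rpl19-ps11 (0.29 ± 0.11) and Rps6-ps4 (0.29 ± 0.061), with adjusted p of 0.0138, 0.00154, 0.0341 and 1.05e-04 in edgeR. Their libraries overlapped between treatments. With the range as a covariate Rpl19-ps11 was at -0.029, Rps2-ps10 at -0.028, Rps6-ps4 at 0.069 and Rps13-ps2 at 0.21, none of which passed. Rps25-ps1 (0.13), Rpl28-ps1 (0.10), Rps23-ps1 (0.08), Rpl36a-ps2 (0.06), Rpl10a-ps1 (0.06), Rps12-ps3 (0.06) and Rpl10-ps3 (0.04) were higher by smaller amounts.

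Rpl14-ps1 was the only member that was lower with metformin in the fit without the range. This copy of Rpl14 lies in an intron of Trpm4 on the opposite strand. Untreated mice held 0.218 CPM at the lowest, 23.5 CPM at the median and 77.0 CPM at the highest, and metformin mice 0, 12.5 and 49.3 CPM. The log2 fold change was -0.63 with an SE of 0.088 (adjusted p = 2.80e-09 in edgeR), and the mean of log2 CPM was lower with metformin in 17 of 20 crosses. With the range as a covariate the log2 fold change turned to 0.079 (adjusted p = 0.566 in edgeR), and it was 0.13 within A, 0.25 within B and -0.21 within C, none of which passed. Within the ranges the medians were close: untreated and metformin medians were 27.2 and 25.8 CPM in A, 6.83 and 8.59 CPM in B, and 8.76 and 9.14 CPM in C. Pooled over crosses, the medians of Rpl14-ps1 thus differed more between range A and the others than between treatments within a range. The mix of crosses was not the same in these groups. Rps25-ps1, which stepped between crosses, had medians of 0.0803 CPM in untreated and 31.7 CPM in metformin mice of C. The part of the crosses in the medians by range was not tested. Rpl14 did not move with the range, with medians from 136 to 147 CPM over the same 6 groups, and it was higher with metformin by 0.09 (adjusted p = 5.31e-10).

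**Figure D5:**
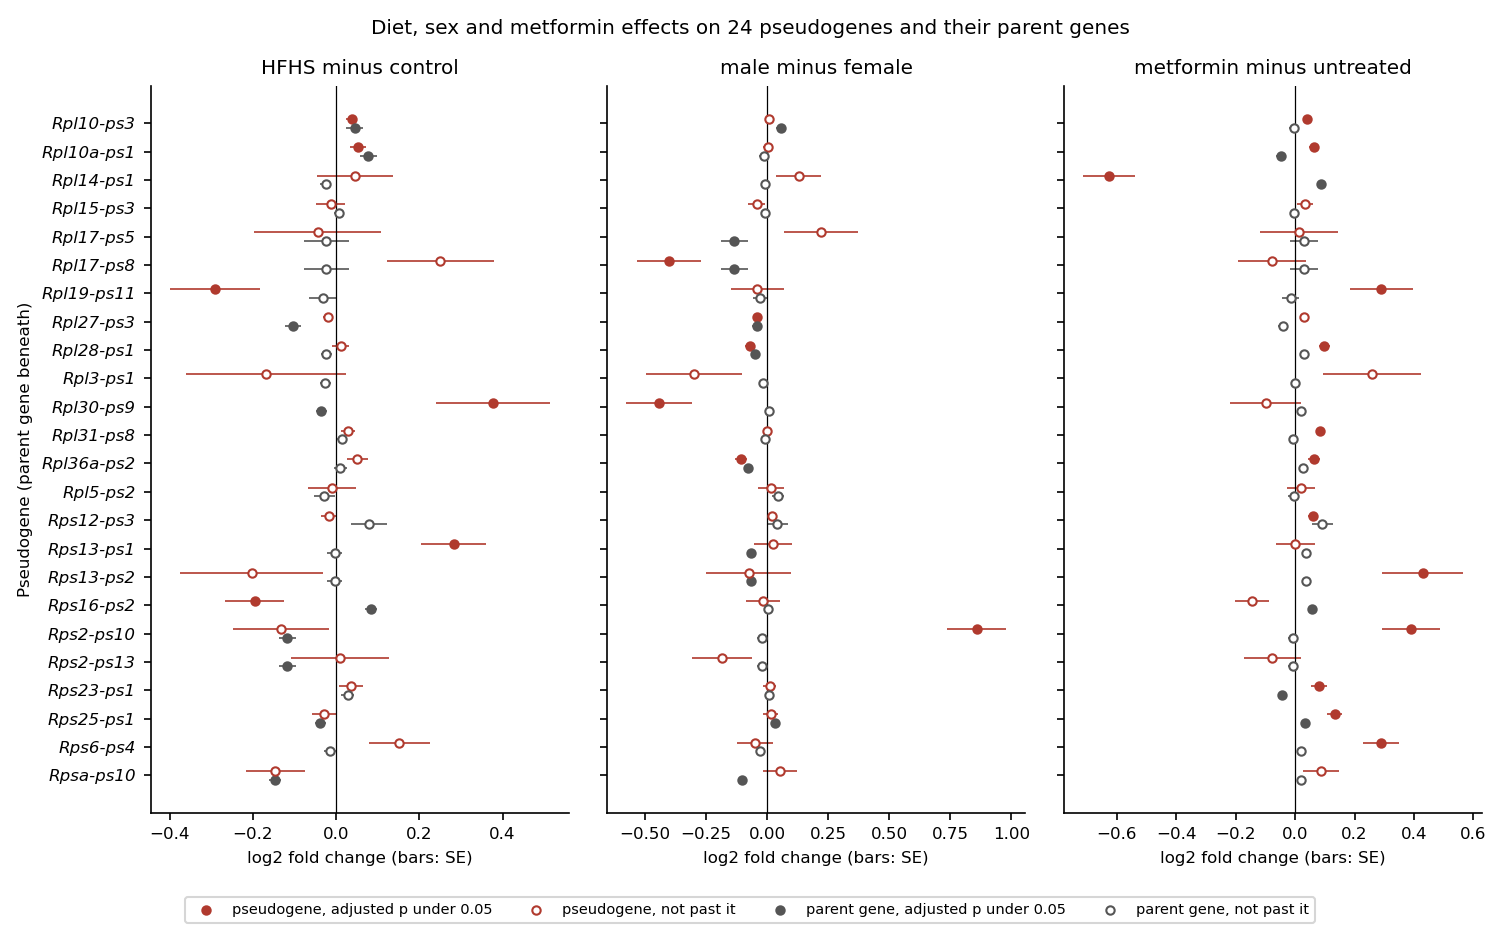
Log2 fold change with its SE for members that reached 1 CPM and for their parent genes, for HFHS minus control, male minus female and metformin minus untreated, filled where the adjusted p is under 0.05. Most points lie close to 0, Rps2-ps10 stands at 0.86 for sex and Rpl14-ps1 at -0.63 for metformin.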

How the data were processed

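RNA from the gonadal fat pad was sequenced after polyA selection as paired reads of 100 bases. The labels covered 705 samples, of which 703 had a column in the tables, and groups came from the labels alone. The authors aligned the reads as single ends to the pooled transcripts of the 8 founder strains and deposited expected counts (estimated reads) per gene with EMASE in GBRS, as whole numbers without normalisation. As the counts were whole numbers, no rounding was done here. Transcripts with under 1 read in 50% of the samples had been removed by the authors. The authors also deposited the same genes as log2 scale values from the variance stabilising transform of DESeq2, used here only for a check of the correlations, and a table of gene positions on GRCm38. Positions of 58 of the 75 members were the same in GENCODE M21, and the printed coordinates were read from M21.

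Counts were scaled with TMM and fitted with edgeR 4.0.16 (quasi-likelihood) in R 4.3.3 for all 20131 genes that passed filterByExpr. Cross, diet and sex were tested in the 470 untreated mice in an additive model of all 3, diet by cross as added terms, and metformin in all 703 mice with cross, sex and diet in the model. P-values were adjusted by Benjamini-Hochberg over all genes tested, with a threshold of 0.05, and tests were two-sided or F-tests. Log2 CPM used a prior count of 1, and CPM for levels none. DESeq2 1.42.0, limma 3.58.1, other scaling, no filter, ranges of sequencing identifiers and libraries left out served as alternatives. The tests were tested on simulated counts. Copies were aligned to parent transcripts with blastn 2.17.0. Expected counts divide shared reads by a model, so paralogs and overlapping genes are uncertain. Library totals set the depth. P-values measure the spread between mice.

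Members, lists, rules and tests were chosen with earlier results of these data known. Members to name were those on in some crosses and off in others, the 10 largest and 5 smallest shares of variance between crosses, and the 5 largest increases and decreases of each contrast (for diet by cross, the 5 smallest p), all among members with a mean of at least 1 CPM in a cross, with their parents. Rps25-ps1, Rpl28-ps1, Rpl19-ps11 and Rpl14-ps1 were always named. Rpl31-ps14, Rpl7a-ps9, Rpl9-ps7, Rpl23a-ps3, Rpl23a-ps2, Rpl3-ps1, Rpsa-ps9 and Rps19-ps6 and members named by their step were chosen after their values were seen. Replicate numbers only name the libraries of a group. No promoter or protein of a member was used here.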

Additional observations from a re-analysis of the deposited data

Results flagged for a closer look

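The diet effect differed between crosses in 5 members by the F-test over the added diet by cross terms of edgeR (Benjamini-Hochberg adjusted over 20131 genes). The adjusted p was 1.55e-24 for Rpl19-ps11, and without the libraries apart from their cross in Rpl19-ps11 or Rps16-ps2 (3 of them untreated and so in this fit) it was 0.873. For Rps16-ps2 it was 2.26e-16, and 0.00645 without those libraries. For Rps13-ps1 it was 0.0298, 0.0210 without them, and 0.0380 without the libraries against their labels (13 of them in this fit), of which CC024xCC002 and CC002xCC075 replicates 34 and 35 held the level of the other of these crosses. For Rps2-ps13 it was 0.0414, and 0.0548 without them. For Rps19-ps6, whose libraries held 0 to 1.43 CPM, it was 0.0459, and it no longer passed without them.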

How the results depend on the processing

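Of the 43 members tested (75 without a filter on low counts), the number that differed between crosses was 35 (93.5% of all genes tested), with 53 without the filter (90.2% of all genes) and 22 within range C (51.9%). For diet it was 7 (68.7%), with 13 in all mice (74.5%), 4 within range B (41.1%) and 0 within range C (34.6%), where edgeR left 1 at an unadjusted p under 0.05. For sex it was 12 (72.5%), with 1 within range B (39.0%) and 2 within C (36.6%). For metformin it was 13 (19.1%), with 2 under the range as a covariate (11.1%) and 0 within each of A, B and C (2.76%, 0.0993% and 0.715%). For diet by cross it was 5 (25.7%), with 9 in all mice (48.5%), 2 by limma-trend (17.1%) and 2 without the 5 libraries apart from their cross (26.3%), 3 of which were in that fit. Leaving out CC042xCC040 replicate 2, CC042xCC060 replicate 23 or CC043xCC011 replicate 24 alone gave 4 to 5. Members on and off numbered 6, and 13 by the 10-fold gap. These alternatives without single libraries and the gap rule were chosen after seeing the data. Ranges B and C hold fewer untreated mice; otherwise the cause was not tested.

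Directions turned for Rpl19-ps11 with diet by limma-trend (0.031), and with metformin for Rpl14-ps1 (0.079 with the range as a covariate, 0.13 within A, 0.25 within B), Rpl19-ps11 (-0.029 with the covariate, -0.53 within C), Rps13-ps2 (-0.012 within B) and Rps2-ps10 (-0.028 with the covariate, -0.31 within A). Of 176 repeats for 16 members named for cross, 169 kept the call, as did 34 of 40 for diet by cross. Direction and call were kept in 49 of 66 for diet, 40 of 70 for metformin and 49 of 66 for sex. The median share of variance between crosses was 16.6%, and 17.7% to 20.2% under the alternatives. The median correlation of copy and parent was 0.02 and stayed at 0.01 to 0.02. No paired analysis was possible because replicate numbers only name the libraries of a group. Levels below about 0.1 CPM rest on few reads, which limits their precision.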
